A study of Homo sapiens with 8 samples.

Results

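The YAP target genes and AMOT described here are 8 genes of the Hippo signalling pathway or under its control: CCN1, CCN2, ANKRD1, AMOTL2, AMOT, AXL, TEAD1 and LATS2. They were taken by their symbols from the 36601 genes of the count tables, and all 8 symbols were found. The cells are HMLE, an immortalised line of human mammary epithelial cells, counted as unique molecular identifiers (UMIs, which mark single captured transcripts) from the 5′ end of polyadenylated RNA in 4 single-cell mRNA libraries. The study asks which intermediate states these cells pass through in the epithelial-to-mesenchymal transition (EMT) that the growth factor TGF-β induces, and what pyridostatin, a ligand of G-quadruplex DNA, does to it. Each of 12 pooled samples carried its own short barcoded oligonucleotide, SBO01 to SBO12. The labels tie no barcode to TGF-β, to pyridostatin, to a time or to a culture, so each barcode population is 1 sample of unknown treatment, and no test was made between populations.

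The first pool, SBO01 to SBO06, went into libraries 1 and 2 and the second pool, SBO07 to SBO12, into libraries 3 and 4, so each population was measured in 2 libraries that are repeat loads of its pool. Of 26247 cell barcodes 22147 passed the filters, 11072 of these carried 1 sample barcode, and 899 cell barcodes were shared by at least 2 libraries, where each copy was kept as a cell of its own. The 352 to 1864 cells of a population gave 8589593 to 48844485 UMIs. In SBO12 another barcode was higher than the assigned one in 782 of 1227 cells (63.7%), and the shares in SBO11, SBO02 and SBO04 were 29.9, 20.2 and 16.5%. Tests are therefore also given without these 4 populations where that changes a call. All 8 markers of mammary epithelium reached 1 CPM (UMIs of a gene scaled to the same total in each population), with a summed level of 1778 CPM in SBO05 and up to 12493 CPM elsewhere, and the epithelial adhesion gene EPCAM was at 31.2 CPM in SBO05 against a median of 318 CPM. Of the markers of other cells, 2 of 8 leukocyte, 1 of 7 endothelial and 5 of 8 stromal fibroblast genes reached 1 CPM. The fibroblast list summed to 92.1 to 352 CPM over populations (median 114), highest in SBO05. The leukocyte list summed to 13.2 to 40.5 CPM, also highest in SBO05, and the endothelial list to 0.343 to 4.25 CPM. Within these lists the T cell gene CD3E was at 0 in every population, and the fibroblast genes LUM and PDGFRA reached at most 0.314 and 0.309 CPM.

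YAP is a transcriptional co-activator that binds DNA through the TEAD proteins, of which TEAD1 is one. The Hippo kinases, with LATS2 at the end of the cascade, phosphorylate YAP and keep it out of the nucleus, and the angiomotins AMOT and AMOTL2 hold it at cell junctions and on actin filaments. CCN1 and CCN2 encode secreted matrix-associated proteins and are, with the ankyrin repeat gene ANKRD1, the most used readouts of YAP activity. AXL encodes a receptor tyrosine kinase for GAS6 and is a known YAP target that is often raised in mesenchymal cells, while AMOTL2 and LATS2 are YAP targets that act back on the pathway as inhibitors.

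TEAD proteins bind a core written GGAATG on one strand and CATTCC on the other, and both spellings were searched in the 250 bases before the start of each gene in the RefSeq promoter table (GRCh38.p14). Windows were found for 6 of the 8 genes, and none for CCN1 and TEAD1. The windows of 4 are shown, with the core in capitals, because CCN2 and AMOT are the members whose levels differed most between tiers of cells, ANKRD1 and CCN2 hold more than 1 core, and AMOTL2 is the angiomotin with a core. Each is written 5′ to 3′ on the strand of its gene, which is the minus strand for these genes.
CCN2, chr6:131951373-131951622: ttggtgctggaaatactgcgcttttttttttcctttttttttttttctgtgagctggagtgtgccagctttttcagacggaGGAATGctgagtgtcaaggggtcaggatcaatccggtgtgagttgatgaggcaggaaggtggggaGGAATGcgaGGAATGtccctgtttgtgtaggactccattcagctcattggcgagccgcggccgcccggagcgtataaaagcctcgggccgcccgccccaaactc
ANKRD1, chr10:90921088-90921337: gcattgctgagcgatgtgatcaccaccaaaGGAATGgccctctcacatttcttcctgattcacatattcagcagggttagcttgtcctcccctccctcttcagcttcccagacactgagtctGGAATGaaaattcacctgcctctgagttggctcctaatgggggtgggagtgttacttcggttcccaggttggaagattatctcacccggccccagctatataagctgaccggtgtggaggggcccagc
AMOTL2, chr3:134374448-134374697: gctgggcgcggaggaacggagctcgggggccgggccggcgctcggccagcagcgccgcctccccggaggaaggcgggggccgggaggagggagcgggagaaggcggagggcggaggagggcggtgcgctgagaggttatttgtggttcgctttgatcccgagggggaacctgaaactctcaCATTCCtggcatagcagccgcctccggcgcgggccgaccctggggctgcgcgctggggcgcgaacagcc
AMOT, chrX:112840832-112841081: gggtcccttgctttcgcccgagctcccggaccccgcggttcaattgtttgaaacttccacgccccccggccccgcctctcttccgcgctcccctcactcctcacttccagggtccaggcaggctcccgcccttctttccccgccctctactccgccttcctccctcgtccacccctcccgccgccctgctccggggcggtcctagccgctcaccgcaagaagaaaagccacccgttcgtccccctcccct

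The CCN2 window held the core 3 times, beginning 169, 104 and 95 bases before the start, all spelled GGAATG. Among all 35116 windows of this length 11.9% held it at least once, 0.940% at least 2 times and 0.0826% (29 windows) 3 times. ANKRD1 held it 220 and 128 bases before its start. AMOTL2 has 2 listed starts, and the window of 1 of them held CATTCC 69 bases before the start. AXL also has 2, and 1 of its windows held CATTCC 212 bases before the start. The windows of AMOT and LATS2 did not hold these letters. The starts are those of RefSeq and differ from the GENCODE gene spans given below. By those spans the AMOTL2 and AXL windows with a core lie wholly inside the gene, and the ANKRD1 window partly. A match describes the sequence and was not tested for binding.

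CCN1 and CCN2 were highest in the same 3 populations, SBO05, SBO01 and SBO12, and AMOT was lowest in exactly these 3. SBO05 was often at an extreme: of the 6097 genes that averaged 20 CPM or more, 32.4% were highest and 29.2% lowest there. AMOT, at a mean of 14.7 CPM, is not among these genes. CCN1 (chr1:85580761-85583962, plus strand, hg38) ranged from 176 CPM in SBO11 through a median of 212 to 668 CPM in SBO05. In SBO05 its level was 628 CPM in library 1 and 716 CPM in library 2. SBO01 followed at 367 CPM and SBO12 at 324 CPM, and the other 9 populations lay between 176 and 243 CPM. The library values of the 3 highest populations did not overlap with each other or with the next in order, whereas 6 of the 11 pairs of neighbours in the order did overlap.

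CCN2 (chr6:131948176-131951373, minus strand) covered a wider span, from 25.4 CPM in SBO11 through a median of 40.4 to 149.5 CPM in SBO05. Its library values in SBO05 were 141 and 159.8 CPM, and those in SBO01 79.3 and 82.6 CPM. Another rule of assignment needs 1 barcode to stand well above the next. It gave SBO12 only 98 cells in place of 1227, but SBO05 more, 2819 in place of 1864. Under this rule SBO12 was no longer below SBO01, at 372 against 369 CPM for CCN1 and 83.9 against 83.1 CPM for CCN2. SBO05 stayed highest at 611 and 137 CPM. When cells of the main assignment were kept only where the assigned barcode was also the highest, SBO12 stayed below SBO01. The levels were then 356 against 370 CPM for CCN1 and 76.1 against 81.6 CPM for CCN2. SBO06, next in the main order, stood at 47.4 CPM, and 4 of 11 neighbouring pairs overlapped. On the scale of log2(CPM + 1) the range was 1.92 for CCN1 and 2.51 for CCN2, and 1.06 and 1.63 without SBO05. Of the 6097 genes that averaged 20 CPM or more, 94.2% had a smaller range than CCN1 and 96.3% a smaller range than CCN2. The median range of those genes was 0.50, and 15.7% had a range of 1 or more.

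AMOT (chrX:112774503-112840815, minus strand), the angiomotin that sequesters YAP, had the widest range of the 8 genes, 3.20 on that scale. It was highest in SBO04 and SBO03, at 31.2 and 30.4 CPM, with a median over populations of 12.4 CPM. The lowest levels were 6.43 CPM in SBO01, 3.63 CPM in SBO12 and 2.51 CPM in SBO05. In SBO05 the 2 libraries gave 2.47 and 2.55 CPM, from 104 UMIs in all, and in SBO04 28.5 and 34.0 CPM. The 3 lowest populations were separate in their library values from each other and from SBO08 above them at 9.51 CPM. SBO02, SBO06, SBO07, SBO11, SBO10 and SBO09 lay between, from 22.8 down to 11.2 CPM, and 5 of the 11 neighbouring pairs overlapped. The range without SBO05 was 2.80. With the other rule of assignment, which gave SBO12 98 cells, AMOT was at 4.56 CPM in SBO12 and 3.54 CPM in SBO05.

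The other angiomotin, AMOTL2 (chr3:134355874-134375479, minus strand), differed little, from 53.6 CPM in SBO12 through a median of 62.1 to 73.4 CPM in SBO02. Library values overlapped in all 11 neighbouring pairs. The median was 69.5 CPM over SBO01 to SBO06 and 55.9 CPM over SBO07 to SBO12, and the 2 pools share no library, so population and library cannot be told apart here. Within the first pool AMOTL2 was at 57.5 CPM in library 1 and at 72.4 CPM in library 2, which hold the same populations. AXL (chr19:41219203-41261766, plus strand) was highest in SBO05 at 54.7 CPM, with 49.4 and 61.2 CPM in its libraries, and lowest in SBO02 at 28.8 CPM. SBO01 at 41.0 CPM and SBO12 at 38.9 CPM came next, but their library values overlapped with each other and, in SBO12, with those of SBO06. The range of AXL was 0.90, and 0.49 without SBO05. Under the other rule of assignment SBO12, then with 98 cells, stood at 50.7 CPM and SBO01 at 42.6 CPM.

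TEAD1 (chr11:12674591-12944483, plus strand), the DNA-binding partner, lay between 47.5 CPM in SBO12 and 70.3 CPM in SBO02, with a median of 58.6 CPM. LATS2 (chr13:20973032-21061547, minus strand), the kinase, lay between 9.84 CPM in SBO12 and 14.3 CPM in SBO11, with a median of 10.8 CPM, and all 11 neighbouring pairs overlapped. ANKRD1 (chr10:90912096-90921276, minus strand) gave only 4 to 33 UMIs per population, 0.24 to 1.51 CPM. At this depth 10 of its 11 neighbouring pairs overlapped, and its order over populations was not resolved. The plot of levels by population shows both libraries of each.

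**Figure D1:**
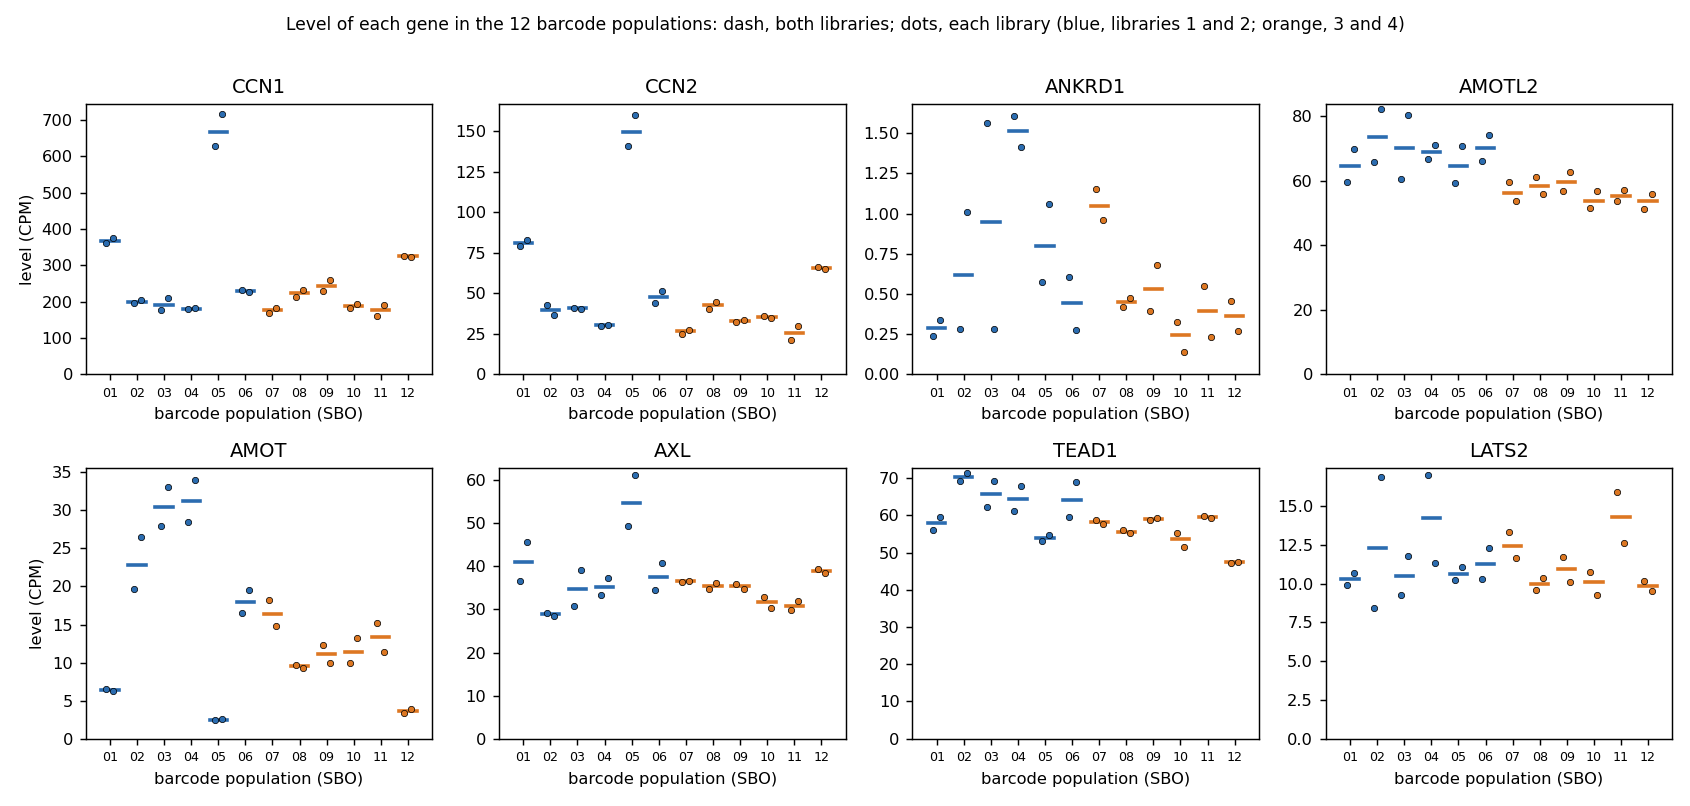
Level of each of the 8 genes (CPM of summed UMIs, y axis from 0) in barcode populations SBO01 to SBO12 (x axis). Dashes are both libraries together and dots single libraries. CCN1 and CCN2 stand highest in SBO05, at 668 and 149.5 CPM, where AMOT stands lowest, at 2.51 CPM.

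Over the 12 populations the log2(CPM + 1) levels of CCN1 and CCN2 had a Pearson correlation of 0.96, and 0.91 without SBO05. CCN1 and AMOT gave -0.84, and -0.76 without SBO05. CCN1 and AXL gave 0.89, and 0.70 without it. AMOT and TEAD1 gave 0.83, and AMOTL2 and TEAD1 0.81. All 3 of these genes stood higher in the first pool, with medians over its populations of 20.4 against 11.3 CPM for AMOT and 64.3 against 56.9 CPM for TEAD1. Over all cells of a library TEAD1 was at 56.4 and 62.2 CPM in libraries 1 and 2, and at 57.1 and 54.9 CPM in libraries 3 and 4. For AMOTL2 these levels were 57.5, 72.4, 55.2 and 55.5 CPM, so that library 2 stood highest for both genes. The part of library 2 in their correlation was not tested. The correlations are descriptions over 12 points that share 4 libraries, and SBO05, SBO01 and SBO12 stand apart from the rest, so no p-value is given.

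Among all other genes that averaged 20 CPM or more, those whose levels over the 12 populations were most like CCN1 were CCNH, CCDC88A and EHD2, with correlations of 0.98, 0.97 and 0.97. For CCN2 they were HTRA1, a secreted protease, ESD and CRIM1, with 0.95, 0.95 and 0.95. Those most like AMOT were NMU, RCC2 and CLIC3, with 0.97, 0.97 and 0.96. NMU ran from 25.1 to 189 CPM and CLIC3 from 18.4 to 136.5 CPM, while HTRA1 ran from 21.5 to 269 CPM. The genes most like AXL were PGK1, NME4 and APEX1 (0.95, 0.94 and 0.94), those most like AMOTL2 were WDR11, SPIDR and RLIM (0.96, 0.96 and 0.95), and those most like TEAD1 were PTK2, GOLPH3 and ITSN2 (0.96, 0.95 and 0.95). LATS2 was followed by MED1 at 0.82 and ANKRD1 by BRD3 at 0.90, both over narrow or sparse levels. Without SBO05 most of these genes were no longer among the 3 most alike. EHD2 stayed for CCN1, APEX1 for AXL, WDR11 for AMOTL2, PTK2 for TEAD1 and BRD3 for ANKRD1. None of those named stayed for CCN2, AMOT or LATS2. The correlations were then 0.94, 0.93 and 0.95 for the CCN1 genes and 0.90, 0.89 and 0.88 for the CCN2 genes. For the AMOT genes they were 0.96, 0.97 and 0.96, and for the AXL genes 0.86, 0.84 and 0.91.

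Single cells were then examined after each was thinned to 10000 UMIs, which 10233 cells (92.4%) reached. At that depth 74.4% of cells held a CCN1 UMI (exact 95% interval 73.6 to 75.3), 30.7% a CCN2 UMI (29.9 to 31.6), 42.2% an AMOTL2 UMI (41.3 to 43.2) and 9.23% an AMOT UMI (8.67 to 9.80). Before thinning the shares were 88.6, 47.9, 71.1 and 20.1%. AXL was seen in 30.9%, TEAD1 in 41.8% and LATS2 in 10.5% of thinned cells. ANKRD1 was seen in 50 of 10233 cells (0.489%, 0.363 to 0.644). These intervals cover counting error only. All cells are of 1 line, so no cell type without these genes shows how many UMIs come from free RNA.

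CCN1 was seen in 92.7% of SBO05 cells and in 59.9% of SBO02 cells, the highest and the lowest share. CCN2 was seen in 55.3% of SBO05 cells and in 12.2% of SBO11 cells. AMOT ran the other way, seen in 2.03% of SBO05 cells (1.42 to 2.81) and in 20.7% of SBO03 cells (17.9 to 23.8). CCN1 and CCN2 were also uneven between cells. The tenth of cells with most UMIs held 43.0% of all thinned CCN1 UMIs and 63.3% of CCN2 UMIs, against 41.4% for TEAD1 and 41.3% for AMOTL2. Such a share depends on the mean level, so that of CCN1 (264 CPM) is not directly comparable with those of TEAD1 and AMOTL2 (59.1 and 62.4 CPM). The variance of UMIs per cell was 7.07 times the mean for CCN1 and 4.03 times for CCN2, against 1.12 times for TEAD1. This ratio too depends on the mean level, so the values are not directly comparable between genes. They are over all populations together and so also hold differences between populations. Within single populations the ratio was 3.02 to 8.20 for CCN1.

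Genes seen in the same cell were counted within each population and set against the product of their separate shares, which is the number expected if they were spread independently. Cells with both CCN1 and CCN2 were 1.24 times as many as that product (median over populations, range 1.05 to 1.45) and were above it in 12 of 12 populations. CCN1 with AMOTL2 stood at 1.07, and AMOTL2 with AXL at 1.09, each above 1 in 12 of 12. AMOTL2 stood at 1.16 with LATS2 and at 1.06 with TEAD1, each above 1 in 10 of 12. AXL with TEAD1 stood at 1.06, above 1 in 8 of 12. Pairs of genes outside the 8 were not counted. How far a ratio can rise is limited by the larger of the 2 shares, and CCN1 was seen in most cells. The sizes are therefore not comparable between pairs. CCN2 with AXL stood at 1.22, above 1 in 11 of 12. Cells with both CCN1 and AMOT were 0.897 times the product and above 1 in 2 of 12, and CCN2 with AMOT 0.815 times, above 1 in 3 of 12. AMOT with AXL stood at 0.925, above 1 in 4 of 12. AMOT with LATS2, TEAD1 and AMOTL2 stood at 1.22, 1.04 and 1.03, above 1 in 7, 7 and 6 of 12, so that AMOT was not below the product with every gene. CCN1 with TEAD1 stood at 0.999, above 1 in 5 of 12. Pairs with ANKRD1 rest on at most 44 cells and are not read.

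**Figure D2:**
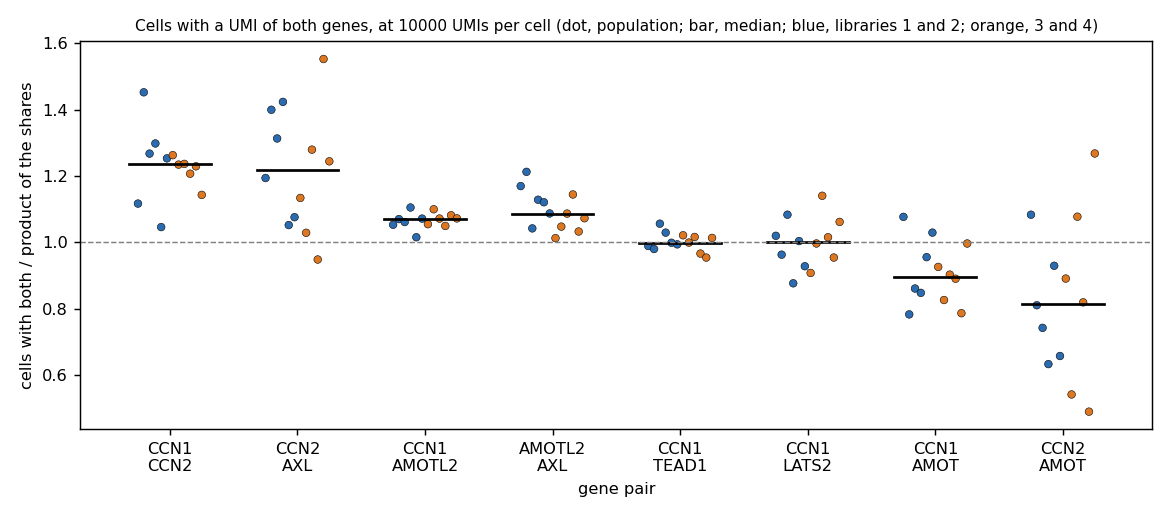
Cells with a UMI of both genes divided by the product of the 2 shares (y axis) for 8 gene pairs (x axis), at 10000 UMIs per cell. Each dot is 1 barcode population and each bar the median of 12. The CCN1 and CCN2 pair stands above 1 in all 12, and the pairs of AMOT with CCN1 and CCN2 are mostly below 1.

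To ask how the genes vary between cells of 1 population, cells of each population and library were ranked and cut into 3 equally large tiers (low, middle, high), and UMIs were summed per population and tier. The 12 populations are the replicates, each compared with itself. Nothing in the labels says that they came from separate cultures, so p-values measure only the spread of the tier difference between these samples. The first ranking used an EMT score, the standardised level of 12 mesenchymal genes (VIM, FN1, CDH2 and collagens among them) minus that of 12 epithelial genes (such as CDH1 and EPCAM). None of the 8 genes is in it. Changes between tiers are associations within a population and not effects of a treatment.

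CCN2, CCN1 and AXL rose and AMOT fell from the low to the high EMT tier, and AMOTL2 did not pass the test, which was an edgeR adjusted p under 0.05. Of the 7 genes tested 6 passed, 3 in each direction, where 39.4% of all 13160 genes tested passed, 20.5% higher and 18.9% lower. CCN1, CCN2, AXL and AMOT also differed by 0.5 or more on the log2 scale, as did 8.16% of all genes tested. CCN2 had low-tier levels of 13.4 to 109.6 CPM over populations (median 17.6) and high-tier levels of 40.4 to 200.5 CPM (median 77.6). The tiers of different populations overlapped, but within each of the 12 populations the high tier was above the low one. The fitted change was 1.62 ± 0.13 on the log2 scale (SE, 3.08-fold, n = 12, edgeR adjusted p = 4.24e-12). In SBO06 CCN2 went from 16.1 to 104.9 CPM, and in SBO05, already high, from 109.6 to 200.5 CPM.

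CCN1 had low-tier levels of 114 to 556 CPM (median 133) and high-tier levels of 228 to 762 CPM (median 319.6), again higher in 12 of 12 populations. Its change was 1.02 ± 0.08 (2.03-fold, edgeR adjusted p = 6.63e-12). AXL, the receptor, went from 19.4 to 43.8 CPM in the low tier (median 25.2) to 41.1 to 58.9 CPM in the high tier (median 46.7). It was higher in 12 of 12, by 0.79 ± 0.06 (1.73-fold, edgeR adjusted p = 1.72e-12). For all 3 genes the middle tier lay between the others on average, at 245, 43.1 and 35.2 CPM for CCN1, CCN2 and AXL.

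AMOT lay at 3.83 to 42.9 CPM in the low tier (median 18.8) and at 1.61 to 21.2 CPM in the high tier (median 6.54). It was lower in 11 of 12 populations, the exception being SBO12, where the tiers stood at 3.83 and 3.94 CPM. The change was -1.19 ± 0.11, a level 2.29-fold higher in the low tier (edgeR adjusted p = 1.22e-10). In SBO04 AMOT went from 42.9 through 35.3 to 13.1 CPM, and in SBO10 from 16.6 through 12.5 to 4.91 CPM. Without the population block, which leaves the differences between populations in the error, AMOT no longer passed (adjusted p = 0.058).

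TEAD1 fell slightly, from a median of 61.1 to 55.4 CPM (-0.15 ± 0.03, edgeR adjusted p = 2.82e-04, lower in 11 of 12). The call was lost with thinned UMIs (adjusted p = 0.132) and in libraries 1 and 2 alone (0.0612). LATS2 passed narrowly (-0.17 ± 0.06, edgeR adjusted p = 0.0321), but did not pass in libraries 1 and 2 alone (0.271), in libraries 3 and 4 alone (0.104) or without the 4 populations of doubtful assignment (0.143). AMOTL2 had a median of 62.8 CPM in the low and 60.4 CPM in the high tier, a change of 0.01 ± 0.04 (edgeR adjusted p = 0.922), higher in 6 of 12. ANKRD1 was below the filter on low counts and not tested. Stromal fibroblast markers moved with the score, with 4 of 5 tested higher and 1 lower and a summed median of 103 CPM in the low and 137 CPM in the high tier. Both leukocyte genes tested fell, with a summed median of 23.0 CPM in the low and 15.5 CPM in the high tier, as did the 1 endothelial gene tested (2.19 and 1.29 CPM for the list). The part of these markers in the changes was not tested.

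**Figure D3:**
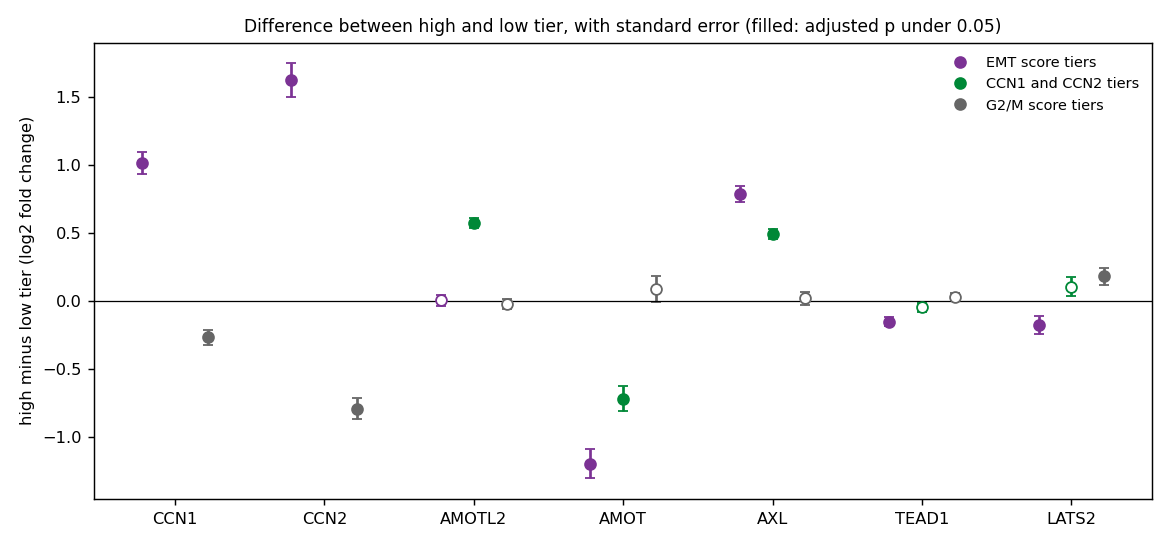
Difference between high and low tier (log2 fold change, y axis, with its standard error) for the 7 genes tested (x axis), with cells ranked by the EMT score, by CCN1 and CCN2 UMIs or by the G2/M score. CCN1 and CCN2 form the second measure and have no value there. CCN2 stands at 1.62 and AMOT at -1.19 for the EMT score, and AMOTL2 passes only along CCN1 and CCN2.

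The second ranking used the thinned UMIs of CCN1 plus CCN2 themselves, whose levels in the tiers are therefore no result. Their low tier had a median of 0 and the high tier a median of 7 such UMIs per cell, and 30.7% of cells tied with a boundary and were placed at random. AMOTL2 and AXL rose and AMOT fell with them. Of the 5 genes tested 3 passed, where 30.2% of 13210 genes did, 14.2% higher and 16% lower. AMOTL2 and AMOT also differed by 0.5 or more on the log2 scale, as did 4.62% of all genes tested. AMOTL2 lay at 41.0 to 63.0 CPM in the low tier (median 48.7) and at 62.6 to 94.5 CPM in the high tier (median 77.6), so that the 2 tiers hardly overlapped across populations. Its change was 0.57 ± 0.04 (1.49-fold, edgeR adjusted p = 3.2e-14), higher in 12 of 12 populations.

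In SBO05 AMOTL2 went from 47.6 through 61.3 to 87.0 CPM, and in SBO03, the smallest of the 12 rises, from 63.0 through 66.7 to 80.1 CPM. AXL went from a median of 29.7 to 42.4 CPM, by 0.49 ± 0.04 (1.41-fold, edgeR adjusted p = 5.18e-12), higher in 12 of 12. AMOT went from a median of 16.4 to 9.54 CPM, by -0.71 ± 0.09 (1.64-fold higher in the low tier, edgeR adjusted p = 2.97e-07), lower in 12 of 12. CCN1 averaged 264 CPM and CCN2 51.4 CPM over populations, so the sum of both rests mostly on CCN1. Ranking cells by CCN2 alone gave 0.18 for AMOTL2 and 0.25 for AXL, both still past the threshold. Most thinned cells held no CCN2 UMI, so many cells in that ranking were tied and placed at random. In SBO12 the AMOT tiers stood at 3.74 and 3.71 CPM, almost the same level. AMOT did not pass without the population block (adjusted p = 0.381) or when cells were ranked by CCN2 alone (-0.17, adjusted p = 0.165).

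TEAD1 had a median of 60.5 CPM in the low and 58.4 CPM in the high tier, a difference of -0.05 ± 0.03 that did not pass (edgeR adjusted p = 0.344), and was higher in 5 of 12. LATS2 differed by 0.11 ± 0.07 and did not pass either (edgeR adjusted p = 0.252), with 7 of 12 higher. ANKRD1, not tested, was higher in 11 of 12 populations, from means of 0.354 to 0.877 CPM, on 0 to 19 UMIs per tier. The immediate early genes, which cells switch on within minutes of a stimulus and also when they are taken off the dish, moved with this ranking. Of 19 tested 15 rose and 0 fell, with a median change of 0.54, among them JUN (182 to 434 CPM) and DUSP1 (43.3 to 109 CPM). Their part in the changes of AMOTL2, AXL and AMOT was not tested.

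CCN1 and CCN2 themselves rose along the EMT score, so each ranking was repeated within the tiers of the other measure, an alternative added after seeing the data. Within tiers of the EMT score, AMOTL2 changed along CCN1 and CCN2 by 0.57 (adjusted p = 6.25e-15), AXL by 0.36 (8.42e-10) and AMOT by -0.47 (1.12e-04). Without this matching AXL had changed by 0.49 and AMOT by -0.71. How far the EMT score still differed between the matched tiers was not measured, so this matching may also be partial. Within tiers of CCN1 and CCN2, the EMT tiers still differed in CCN1 by 0.52 (adjusted p = 5.33e-09, against 1.02 before) and in CCN2 by 1.17 (5.02e-10), so that this matching was only partial. AXL differed there by 0.70 (3.17e-13) and AMOT by -1.01 (1.64e-08). Under that partial matching AMOTL2 fell along the EMT score, by -0.12 ± 0.03 (adjusted p = 0.00243).

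**Figure D4:**
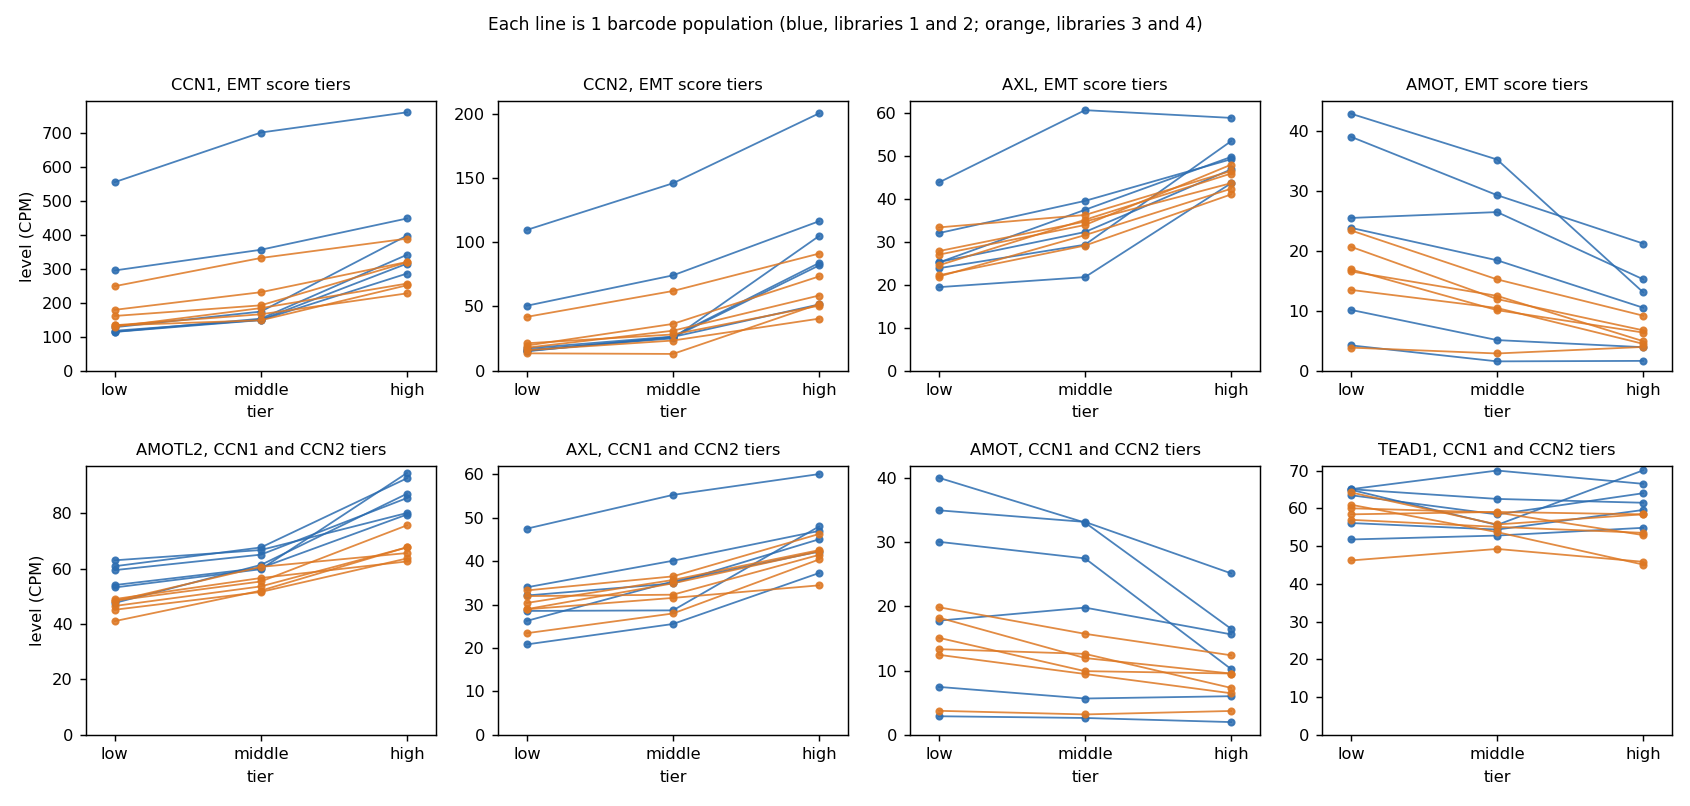
Level (CPM, y axis from 0) in the low, middle and high tier (x axis) of each of 12 barcode populations, 1 line each. The upper row ranks cells by the EMT score and the lower row by CCN1 and CCN2 UMIs. AMOTL2 and AXL rise in 12 of 12 populations along CCN1 and CCN2, and AMOT goes from 42.9 to 13.1 CPM in SBO04 along the EMT score.

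The third ranking used a score of 20 genes of the G2 and M phases of the cell cycle, which none of the 8 genes enters. CCN2 and CCN1 fell from the low to the high G2/M tier and LATS2 rose. Of the 7 genes tested 3 passed, where 52.7% of 13207 genes did, 24.1% higher and 28.6% lower. CCN2 also differed by 0.5 or more on the log2 scale, as did 7.26% of all genes tested. CCN2 lay at 28.8 to 207 CPM in the low tier (median 45.7) and at 12.7 to 108.7 CPM in the high tier (median 28.4), lower in 11 of 12. Its change was -0.79 ± 0.08, a level 1.73-fold higher in the low tier (edgeR adjusted p = 3.91e-11). Of the 8 mammary epithelial markers 7 fell along this score, as did 3 of 5 stromal fibroblast markers, 2 of 2 leukocyte markers and 14 of 19 immediate early genes tested, and their part in the changes was not tested. In SBO06 the CCN2 tiers stood at 72.0, 43.5 and 27.6 CPM, and in SBO09, the exception, at 28.8, 41.3 and 29.2 CPM.

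CCN1 went from a median of 214 to 189 CPM, by -0.27 ± 0.05 (edgeR adjusted p = 7.76e-05), lower in 10 of 12. Its middle tier was on average the highest, at 282 CPM against 273 CPM in the low and 235 CPM in the high tier. Neither gene passed without the population block (adjusted p = 0.0817 for CCN2 and 0.538 for CCN1). LATS2 went from a median of 10.7 to 11.9 CPM, by 0.18 ± 0.06 (edgeR adjusted p = 0.0115), higher in 9 of 12, but not past the threshold with thinned UMIs (0.188), in libraries 1 and 2 alone (0.386) or without the 4 populations of doubtful assignment (0.0716). AMOTL2, AMOT, AXL and TEAD1 differed by -0.02, 0.09, 0.02 and 0.03 and did not pass. AMOT passed in libraries 1 and 2 alone (0.27, adjusted p = 0.0477) and not in libraries 3 and 4 (-0.13, adjusted p = 0.458).

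The wider pathway was read on lists of 22 YAP and TAZ target genes and of 34 Hippo components, which hold several of the 8 genes. Of 20 targets tested along the EMT score 12 rose, 3 fell and 5 did not pass, where 20.5% of all genes were higher and 18.9% lower, with a median change of 0.29 against 0.01 over all genes tested. Without the population block 3 rose and 1 fell. CCDC80, a secreted matrix protein gene, went from 34.4 to 50.7 CPM (0.53 ± 0.06, edgeR adjusted p = 6.27e-09), and ASAP1, which acts on the small GTPase ARF, from 36.3 to 48.3 CPM (0.42 ± 0.05, adjusted p = 4.46e-08). NT5E, which encodes the surface enzyme CD73, rose by 0.32 and was higher in 12 of 12. MYOF, a membrane repair gene, went the other way in 12 of 12, from 88.5 to 66.6 CPM (-0.33 ± 0.04). F3, which encodes tissue factor, stood at 281 and 287 CPM and did not pass (edgeR adjusted p = 0.915).

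Along CCN1 and CCN2 13 of 18 targets rose, 1 fell and 4 did not pass, where 14.2% of all genes were higher and 16% lower, with a median of 0.41, and without the population block 5 rose and 0 fell. GADD45A, a growth arrest and DNA damage gene, went from 108 to 202 CPM (0.88 ± 0.06, edgeR adjusted p = 5.2e-13) and F3 from 224 to 355 CPM (0.68 ± 0.05, edgeR adjusted p = 1.23e-13), both higher in 12 of 12. CRIM1, a membrane protein gene of growth factor binding, rose by 0.53. MYOF was again the gene that fell (-0.20). Along the G2/M score 2 of 20 targets rose, 9 fell and 9 did not pass, a share near the 52.7% of all genes that passed, and 0 rose and 1 fell without the block. IGFBP3, which binds insulin-like growth factors, fell by 0.77, GADD45A by 0.53 and F3 by 0.47 on the log2 scale.

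Of the 34 Hippo components 5 rose, 12 fell and 17 did not pass along the EMT score, where 39.4% of all genes passed, with a median of -0.03, and 1 rose and 3 fell without the population block. AMOT and VGLL1 had the largest changes. VGLL1, a TEAD cofactor found in epithelia, went from 58.5 to 23.7 CPM (-1.29 ± 0.11, edgeR adjusted p = 2.59e-11) and was lower in 12 of 12. FRMD6, an upstream membrane scaffold, went from 33.4 to 51.9 CPM (0.64 ± 0.05, edgeR adjusted p = 2.69e-12), and AJUBA, a LIM protein that restrains LATS, from 35.0 to 49.9 CPM (0.51 ± 0.08, edgeR adjusted p = 1.95e-06). VGLL3, another TEAD cofactor, fell by 0.51, the kinase STK3 by 0.27 and VGLL4, which competes with YAP for TEAD, by 0.22. YAP1 itself went from 30.9 to 27.5 CPM (-0.12 ± 0.04, edgeR adjusted p = 0.0273), lower in 11 of 12.

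Along CCN1 and CCN2 6 components rose, 7 fell and 21 did not pass, not far from the 30.2% of all genes that passed, and 1 rose and 0 fell without the block. FRMD6 rose by 0.52 and AJUBA by 0.40, beside AMOTL2, and VGLL1 fell by 0.51, VGLL4 by 0.22 and the kinase TAOK1 by 0.21. Along the G2/M score 10 rose, 9 fell and 15 did not pass, near the 52.7% of all genes that passed, and 3 rose and 4 fell without the block. TEAD4, another TEAD family member, went from 38.0 to 25.4 CPM (-0.64 ± 0.04, edgeR adjusted p = 3.54e-16) in 12 of 12, and AMOTL1, the angiomotin not among the 8 genes, from 30.4 to 23.9 CPM (-0.38 ± 0.04, edgeR adjusted p = 1.84e-10), also in 12 of 12. STRN3, a subunit of a phosphatase complex that opposes the Hippo kinases, rose by 0.51 and TAOK1 by 0.33. The 3 angiomotins thus differed in which ranking they passed: AMOT along the EMT score and along CCN1 and CCN2, AMOTL2 along CCN1 and CCN2, and AMOTL1 along the G2/M score, and these differences between genes were not themselves tested.

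**Figure D5:**
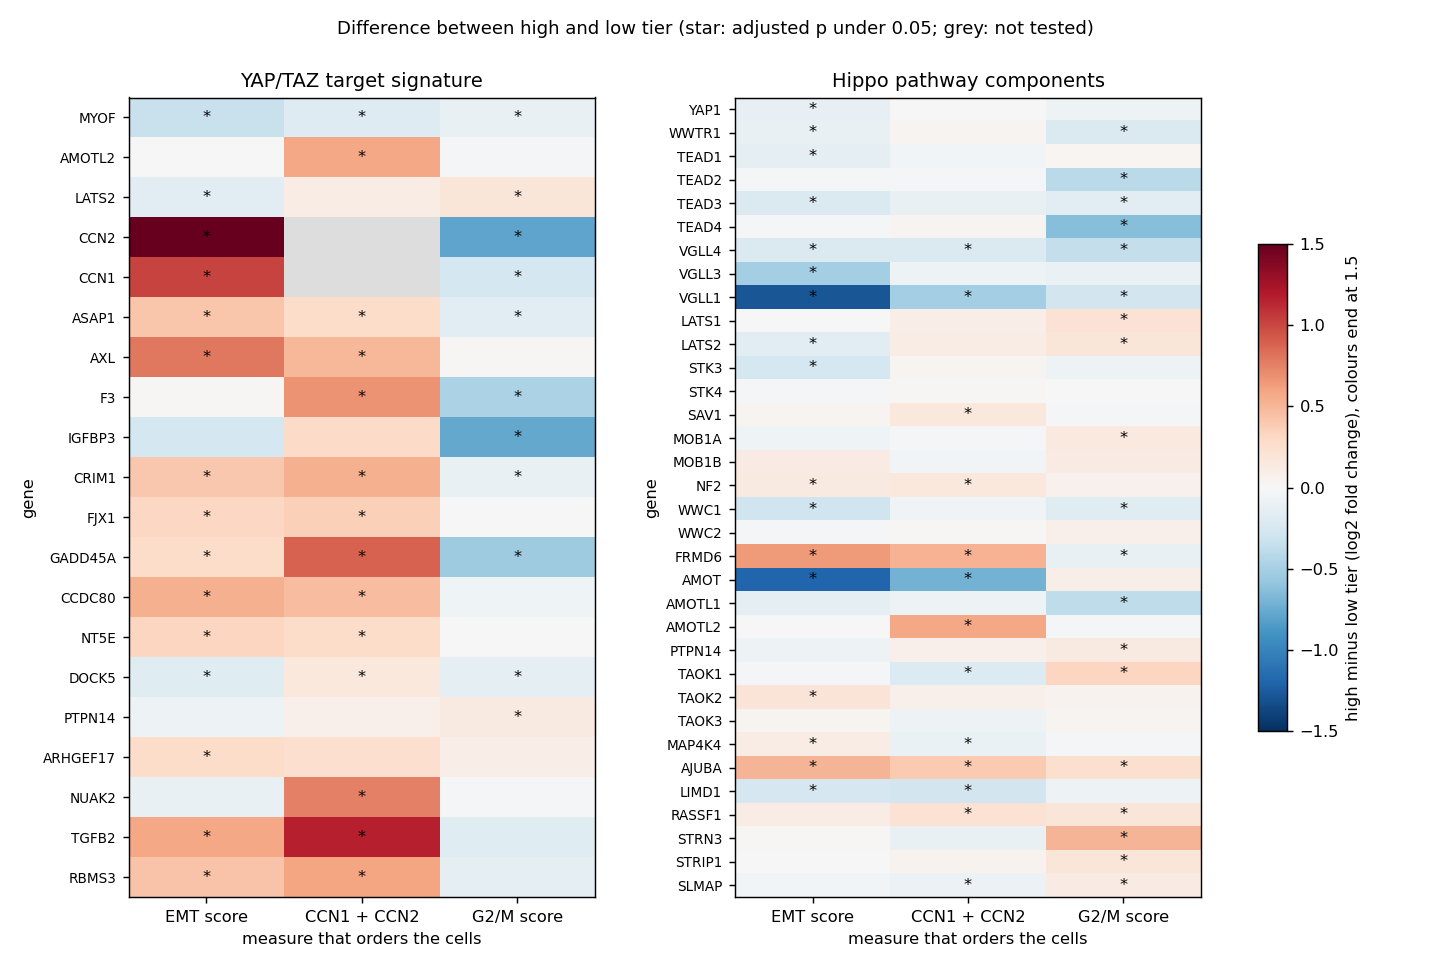
Difference between high and low tier (log2 fold change, colour scale ending at 1.5 either way) for the tested genes of the YAP/TAZ target and Hippo component lists (rows), with cells ranked by 3 measures (columns). Stars mark an adjusted p under 0.05, and grey marks CCN1 and CCN2, which form the second measure. Most targets are red in the first 2 columns, with 12 and 13 called higher, while components are mixed.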

How the data were processed

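Counts of UMIs per gene and cell were deposited by the authors as 1 matrix per mRNA library, which also holds the 12 sample barcodes. Per the submitters' processing notes bcl2fastq 2.20.0.422, Cell Ranger 6.0.2, Seurat 4.1.0 and hg38 were used, and the sources used here give no filter before deposit. Kept cells had at least 1000 genes and at most 15% mitochondrial UMIs. Median UMIs per kept cell were 22198.5 to 38051 by library. HTODemux (Seurat 5.3.0, positive quantile 0.99) assigned barcodes, restricted to those on top in at least 1% of cells. The 5510 cells with several barcodes were left out as doublets, and pairs of cells from 1 sample stay in. Levels are CPM of summed UMIs.

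Tiers were set on cells thinned to 10000 UMIs, and unthinned UMIs were summed into 36 sums. edgeR 4.0.16 was run with filterByExpr, TMM, population as block and the quasi-likelihood test, at a Benjamini-Hochberg false discovery rate of 0.05 over all genes. The genes of a measure were left out of its test. The code was tested on simulated data. DESeq2 1.42.0, other filters, scalings, tiers and assignments and left-out libraries or populations were alternatives. Gene positions are from GENCODE in hg38.

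Members and lists were chosen with earlier results of these data known. Of a list, genes past the threshold with at least 20 CPM were named, at most 10, of each ranking the 5 largest rises and falls, and of each member the 3 most alike genes. A gene that this rule names is not reported here.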

Additional observations from a re-analysis of the deposited data

Results flagged for a closer look

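The level of each of the 8 genes over all kept cells with 1 barcode was compared between the 4 libraries, and in 2 genes 1 library stood apart from the other 3. AMOTL2 was at 72.4 CPM in library 2 and at 57.5, 55.2 and 55.5 CPM in libraries 1, 3 and 4, a gap of 0.865 of the whole range. AXL was at 44.3 CPM in library 2 and at 35.3, 34.9 and 34.0 CPM in the others, a gap of 0.875. Chance alone marks about 1 in 20 groups of 4 like values this way, and 8 genes were examined. The libraries are repeat loads of different pools and the genes share them, so that rate need not hold here. Library 2 holds the same populations as library 1. Without library 2, AMOTL2 along CCN1 and CCN2 and AXL along both rankings kept their calls.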

How the results depend on the processing

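The number of genes passing depended most on the block. With no replicate block, so that tiers were not compared within their own population, 931 genes passed along the EMT score (365 higher, 566 lower) in place of 5189, 190 along CCN1 and CCN2 (134 and 56) in place of 3983, and 2590 along the G2/M score (1556 and 1034) in place of 6955. The pairing is by construction, since the tiers of a block are cells of 1 population. With thinned UMIs the counts were 2900, 2160 and 4530. Ranking by CCN2 alone gave 1269, of which 57.9% were higher against 47.1% in the fit reported. In libraries 1 and 2 alone, with 6 populations, 2796 passed along the EMT score and 2355 along CCN1 and CCN2, and in libraries 3 and 4 alone 2258 along CCN1 and CCN2. Leaving out 1 library gave 4091 to 4338, 3044 to 3381 and 5788 to 6097 genes for the 3 rankings, and leaving out 1 population 4592 to 5582, 3488 to 3997 and 6436 to 6907. Of the 8 members 4 spanned 1 or more in log2 level, and 3 to 4 did when a library was left out. These were CCN1, CCN2, AMOT and ANKRD1, the last at 1.02 on only 4 to 33 UMIs per population. Of genes that averaged 20 CPM or more 15.7% did, but AMOT and ANKRD1 lie below that level.

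Of the members, CCN1, CCN2 and AXL kept their calls along the EMT score under every alternative run, as did AMOTL2 and AXL along CCN1 and CCN2, but sizes moved. Ranking by CCN2 alone gave 0.18 for AMOTL2 in place of 0.57 and 0.25 for AXL in place of 0.49, and partial matching gave 0.52 for CCN1 in place of 1.02. CCN1 along the G2/M score was -0.16 in libraries 3 and 4 alone in place of -0.27, TEAD1 along the EMT score -0.10 with 2 tiers in place of 3 against -0.15, and LATS2 there -0.30 with thinned UMIs in place of -0.17. LATS2 passed in 16 of 29 alternatives along the EMT score and in 19 of 27 along the G2/M score. Its call along the EMT score was lost without library 1, 2 or 3 (adjusted p = 0.102, 0.0780 and 0.192) and without SBO08 or SBO10 (0.0823 and 0.0554), and that along the G2/M score without library 4 (0.114) or SBO12 (0.0501). Other members that lost a call are given with their values above. AMOTL2 along the EMT score was at 0.01 in the fit reported and passed in the other direction, at -0.12, with cells matched on tiers of CCN1 and CCN2. Values that did not pass also changed sign in some alternatives, among them AMOT, AXL and AMOTL2 along the G2/M score (down to -0.13, down to -0.07 and up to 0.02) and TEAD1 and LATS2 along CCN1 and CCN2 (up to 0.03 and down to -0.04). The cause was not tested. Without SBO02, SBO04, SBO11 and SBO12, 12 YAP and TAZ targets rose and 1 fell along the EMT score, 13 and 1 along CCN1 and CCN2, and 1 and 6 along the G2/M score. Fits without these 4 populations, by pool and with matched cells were chosen after seeing the data. At 5000 UMIs per cell, cells with both CCN1 and CCN2 were 1.37 times the product, in place of 1.24. Depth limits ANKRD1 throughout, and CCN2 and AMOT in single cells.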

Other observations

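Other genes among those that rose most along the EMT score were KCNMA1, a potassium channel gene (1.91 ± 0.23, higher in 12 of 12), TNFRSF6B, a decoy receptor (42.1 to 122 CPM, 11 of 12), and HTRA1 (1.47 ± 0.14, 12 of 12). The largest falls were S100P (-2.43 ± 0.14), the mucosal keratin KRT13 (-2.40 ± 0.14), the kallikrein KLK7 (-2.20 ± 0.10), NCCRP1 (-2.12 ± 0.12) and RARRES1 (-2.11 ± 0.11), each in 12 of 12. Along CCN1 and CCN2 the genes that rose most included VIM (1.59 ± 0.17, 11 of 12), DUSP1 (1.31 ± 0.08), JUN (1.27 ± 0.09) and ATF3 (1.27 ± 0.11). S100P (-1.64), RARRES1 (-1.39), KRT13 (-1.37), S100A8 (-1.35) and KLK7 (-1.19) fell there. Along the G2/M score the mitotic genes PSRC1, DEPDC1, KIF20A, ASPM and HMMR rose by 2.96, 2.91, 2.71, 2.60 and 2.46, and the genes of S phase entry and repair CCNE2, E2F1, UNG, DTL and FAM111B fell by 2.17, 1.76, 1.66, 1.58 and 1.57. All of these passed the edgeR test with an adjusted p under 0.05.

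Of all genes tested 39.4% passed along the EMT score, 30.2% along CCN1 and CCN2 and 52.7% along the G2/M score, and the counts of lists are to be read beside these shares. Of 18 actin and SRF target genes, which respond to contractile tension, 17 rose and 0 fell along both the EMT score and CCN1 and CCN2, with medians of 0.30 and 0.27. Of 19 TGF-β target genes 8 rose and 4 fell along the EMT score, and 9 rose and 1 fell along CCN1 and CCN2. Along CCN1 and CCN2 all 12 epithelial score genes fell, 7 of 9 mesenchymal score genes tested rose, and 18 of 20 G2/M score genes fell. Of 19 immediate early genes 8 rose and 6 fell along the EMT score, and 0 rose and 14 fell along the G2/M score.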
